A study of Mus musculus with 6 samples.

Results

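The antioxidant and glutathione genes examined here are a list of 42 genes chosen by symbol out of 43629 genes with a deposited count, and all 42 were found and passed the filter on low counts. They were read in the left ventricles of 6 male F1 mice of the outbred CD-1 strain at 1 year of age. Their dams had been injected intraperitoneally each day from embryonic day (E) 6.5 to 9.5, those of the 3 vehicle hearts with normal saline and those of the 3 caffeine hearts with 20 mg/kg caffeine. One field of the sample labels ends the exposure at E10.5. The labels name no engineered allele and no treatment after birth for either group. The comparison asks whether transcript levels in the adult heart differ after caffeine exposure before birth. Which dam each mouse came from was not stated, so p-values measure the spread between these hearts, and hearts of the same litter cannot be told apart from independent ones.

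Heart muscle makes most of its ATP in mitochondria, whose respiratory chain leaks superoxide. Superoxide dismutases turn superoxide into hydrogen peroxide, and catalase, glutathione peroxidases and peroxiredoxins then remove the peroxide, the latter enzymes with electrons from glutathione or thioredoxin. Glutathione, a small thiol peptide, is made by glutamate-cysteine ligase and glutathione synthetase, is recycled by glutathione reductase, and is joined to reactive molecules by the glutathione transferases. Many of these genes are switched on by the transcription factor NRF2 (gene Nfe2l2), which KEAP1 holds back, at a DNA motif called the antioxidant response element. Metallothioneins bind zinc and copper through their many cysteines and are induced by metals and glucocorticoids. TXNIP binds and inhibits thioredoxin and restrains glucose uptake, and its gene is induced when glucose is high.

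Levels are given as CPM, counts scaled to a common library size with TMM factors that correct for differences in composition between libraries. Total counts were 9228359 to 10483101 in the vehicle hearts and 7613011 to 9153997 in the caffeine hearts, so every caffeine library was shallower. At these depths 3 counts, taken as the floor, correspond to 0.286 to 0.394 CPM, a limit that covers counting error only, and the lowest count of any of the 42 genes in any heart was 42. Each heart was kept as a sample of its own, because chi-square values between hearts given the same injection were 4.17 to 10.4 times their degrees of freedom. Fold changes are log2 values of caffeine against vehicle from edgeR's quasi-likelihood test on all 13092 genes that passed the filter, with their standard error (SE). A gene was called changed at a Benjamini-Hochberg adjusted p below 0.05 together with a fold change above 1.5.

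The promoters of 3 genes are shown because the members furthest from no difference in either direction, Mt2 and Txnip, and the neighbour and paralog of Mt2, Mt1, are genes with well-known upstream response elements. Each is the 250 bases before the RefSeq transcription start on GRCm38.p6, all on the plus strand. Capitals mark the letters TGCNCNC in both metallothionein promoters. This pattern takes in the core of the metal response element bound by MTF1 but is looser, so a match need not be that core. In Mt2 they also mark TGACNNNGC, the core of the antioxidant response element, as TGACTCAGC. In Txnip they mark a pair of CACG with 7 bases of any kind between them, as in the paired E-boxes of a carbohydrate response element.
Mt2, chr8:94172368-94172617: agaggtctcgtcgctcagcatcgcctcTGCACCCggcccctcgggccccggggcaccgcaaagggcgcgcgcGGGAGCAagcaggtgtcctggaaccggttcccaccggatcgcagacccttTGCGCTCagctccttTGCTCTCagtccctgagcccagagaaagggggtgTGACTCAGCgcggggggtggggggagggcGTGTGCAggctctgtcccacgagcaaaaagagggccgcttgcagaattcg
Mt1, chr8:94178839-94179088: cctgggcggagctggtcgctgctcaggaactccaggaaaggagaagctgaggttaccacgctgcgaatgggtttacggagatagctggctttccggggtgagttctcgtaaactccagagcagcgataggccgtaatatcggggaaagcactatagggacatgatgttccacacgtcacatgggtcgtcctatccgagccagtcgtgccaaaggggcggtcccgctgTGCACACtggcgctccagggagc
Txnip, chr3:96557707-96557956: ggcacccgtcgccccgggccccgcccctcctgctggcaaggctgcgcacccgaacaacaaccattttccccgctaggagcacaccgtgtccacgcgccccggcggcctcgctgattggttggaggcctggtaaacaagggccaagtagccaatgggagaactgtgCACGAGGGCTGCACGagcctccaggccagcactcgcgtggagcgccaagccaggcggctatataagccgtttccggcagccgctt

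Both strands were searched, and 36 of the 42 members had a promoter in the RefSeq table. For members the RefSeq start nearest the GENCODE start was used. The shares over all promoters used the first start listed for each gene, so the shares below are not strictly like for like. The Mt2 promoter held 5 matches to TGCNCNC, which began at -223, -178, -128, -113 and -50 from the start, and a single match to TGACNNNGC at -79 to -71, none of which overlap. The Mt1 promoter held 1 match to TGCNCNC, at -23 to -17. Its window precedes the RefSeq start nearest the GENCODE start. Bases after that start, where a transcript could also begin, were not searched. The match is therefore not a count of the metal response elements of Mt1, and it cannot be set against the 5 matches of Mt2. TGCNCNC is short and common, since 43.8% of 27025 promoters of the same length held it, against 44.4% of the 36 member promoters. TGACNNNGC was held by 10.1% of all promoters and by 7 of the 36 member promoters (19.4%), those of Sod1, Prdx1, Gclm, Gstm5, Mgst1, Nfe2l2 and Mt2. The paired E-box letters were held by 0.551% of all promoters and, among the members, by Txnip alone, at -85 to -71. Txnip also held 1 match to TGCNCNC, which does not overlap it. These are matches of letters and do not show that a factor binds there. The RefSeq start lies 46 bases from the GENCODE start in Mt2 and 7 bases in Mt1, and at the same base in Txnip. In some other members it lies far from the GENCODE start, at 23011 bases in Glrx2, 15252 in Hmox2 and 2294 in Prdx4.

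None of the 42 genes was called higher or lower in the caffeine hearts, where 14 of all 13092 genes tested were called (0.107%, made up of 0.084% higher and 0.0229% lower). Neither was any member called by edgeR's exact test (0.718% of all genes called), its likelihood ratio test (0.771%), DESeq2 (0.512%) or limma-voom (0.107%). The members' adjusted p-values ran from 0.297 to 1.0. Their log2 fold changes ran from -0.48 for Txnip to 0.73 for Mt2, with a median of -0.027 against 0.001 over all genes tested. Of the members, 18 were higher and 24 lower in caffeine (57.1% lower, against 49.8% of all genes). At an unadjusted p below 0.05 there were 5 of 42, Mt2 and Hmox2 on the higher side and Txnip, Gstm1 and Gstm2 on the lower, where 8.82% of all genes reached that level (4.42% higher, 4.4% lower). The 3 caffeine hearts stood wholly apart from the 3 vehicle hearts for 3 members, above them for Gpx7 and Hmox2 and below them for Gstm1, where 14.2% of all genes did so (7.11% above, 7.12% below). The 95% interval of the fold change, without adjustment for the number of genes, lay within a 1.5-fold change in either direction for 33 of the 42 members and for 63.0% of all genes. Across the 42 genes the SD of log2 CPM among hearts of the same treatment had a median of 0.12 in vehicle and 0.14 in caffeine.

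**Figure D1:**
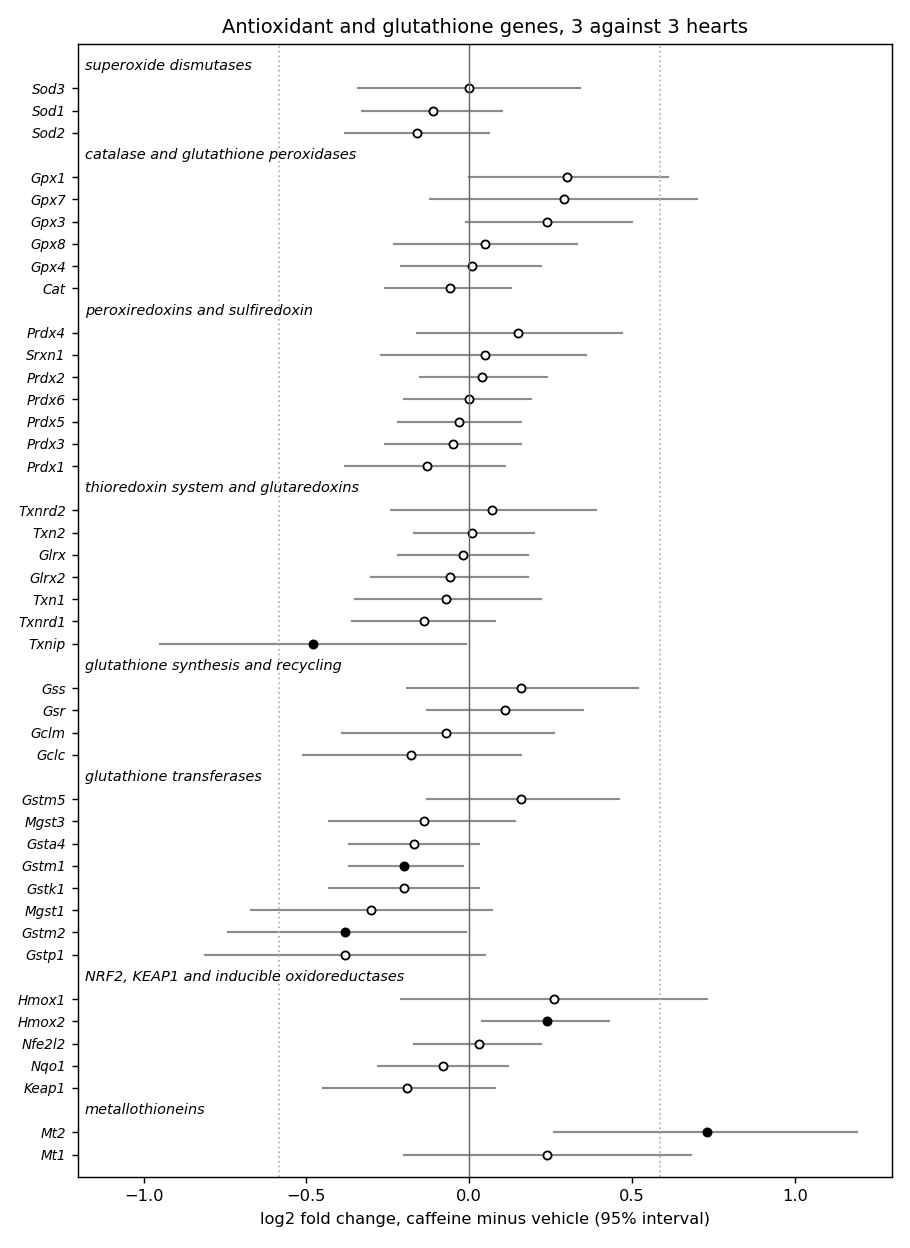
Log2 fold change of caffeine against vehicle for each of the 42 genes (x axis) with its 95% interval (grey line), grouped by role on the y axis. Filled points have an unadjusted p below 0.05, open points do not, and dotted lines stand at a 1.5-fold change. The points run from -0.48 for Txnip to 0.73 for Mt2, 33 of the 42 intervals lie between the dotted lines, and none of the genes was called.

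Per kilobase of the union of its exons, the most abundant of these transcripts was Mt1, at 381 CPM per kilobase over the 6 hearts. It was followed by Prdx5, a peroxiredoxin of mitochondria and peroxisomes, at 245 and by mitochondrial Prdx3 at 236. The lowest by this length was Gss, glutathione synthetase, at 2.32. Levels per kilobase depend on the length chosen. For members with near copies, such as Prdx1, Prdx5, Sod2 and Txn1 (given below), they depend also on how shared reads were counted. With the principal coding transcript as the length, an alternative added after the data were seen, Mt1 stood at 864 and Prdx5 at 416, and Prdx3 stayed at 236 and was the fifth. For Prdx3 against cytosolic Prdx1 and for the thioredoxins, the mitochondrial form was the higher per kilobase with either length. The level of Prdx3 was 4.82 times that of Prdx1 by the exon union (median of the hearts, range 4.53 to 6.39) and 3.63 times with principal transcripts (3.41 to 4.82). That of mitochondrial Txn2 was 2.06 times that of Txn1 by the exon union (1.75 to 2.20) and 4.23 times with principal transcripts (3.59 to 4.51). The thioredoxin reductases went the other way, with cytosolic Txnrd1 at 1.23 times mitochondrial Txnrd2 by the exon union (1.12 to 1.82) and 1.62 times with principal transcripts (1.47 to 2.38). Mitochondrial Sod2 stood at 4.92 times cytosolic Sod1 by the exon union (3.61 to 5.68), and at 1.36 times by principal transcripts (0.995 to 1.56), so that order rests on the length in use. Of the haem oxygenases, the constitutive Hmox2 stood at 3.18 times the inducible Hmox1 (2.43 to 4.61).

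**Figure D2:**
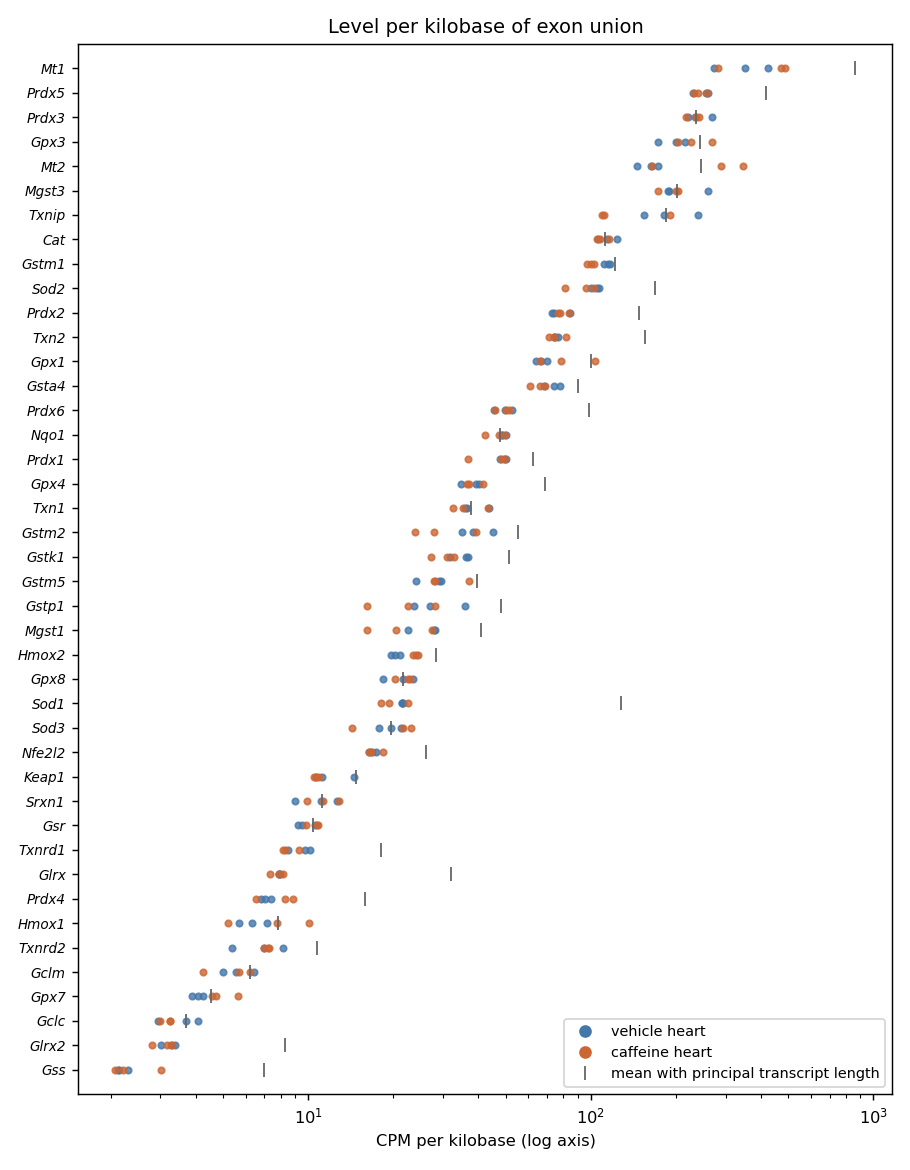
Level of the 42 genes per kilobase of exon union (x axis, log scale, CPM per kilobase), 1 point per heart, blue for vehicle and orange for caffeine, with genes ordered by their mean. Grey ticks give the mean when the principal transcript length is used instead, which moves Mt1 from 381 to 864 and leaves Prdx3 at 236. Points of the 2 treatments lie mixed for most genes.

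The largest difference among the 42 genes was that of the metallothionein gene Mt2 (ENSMUSG00000031762, chr8:94172664-94173568 on GRCm38). It stood at 102, 95.8 and 86.0 CPM in the 3 vehicle hearts and at 170, 96.6 and 203 CPM in the 3 caffeine hearts. Caffeine hearts 1 and 3 were above every vehicle heart, while caffeine heart 2 lay inside the vehicle range, so the groups overlap. The fitted log2 fold change was 0.73 ± 0.21 (SE, n = 3 per treatment), a fold of 1.65 with a 95% interval of 0.26 to 1.19 on the log2 scale, and the adjusted p of 0.297 from edgeR did not pass. Mt2 depended on a single library. Without caffeine replicate 2 its log2 fold change was 0.98 and it was called (edgeR adjusted p = 0.0151), whereas without caffeine replicate 3 it was 0.50 (edgeR adjusted p = 0.646).

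Mt1, its neighbour on chromosome 8, stood at 526, 439 and 339 CPM in vehicle and at 586, 351 and 606 CPM in caffeine. Caffeine hearts 1 and 3 were again the highest and caffeine heart 2 was near the bottom, but vehicle heart 1 was close to them. The log2 fold change of Mt1 was 0.24 ± 0.20 (edgeR adjusted p = 0.794). Within each heart, the count of Mt2 divided by that of Mt1 was 0.194, 0.218 and 0.254 in vehicle and 0.290, 0.275 and 0.335 in caffeine. This ratio, chosen after the values were seen, was higher in each caffeine heart than in any vehicle heart, caffeine heart 2 included. On the other strand, the antisense gene Gm45774 covers 73.5% of the exon bases of Mt2 and was not among the counted genes. The library kit does not mark strand, so reads of this gene could have been counted as Mt2. Of 5 other genes of the metallothionein axis, 3 were tested and all 3 were lower in caffeine, with log2 fold changes of -0.19 to -0.08 and none called.

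**Figure D3:**
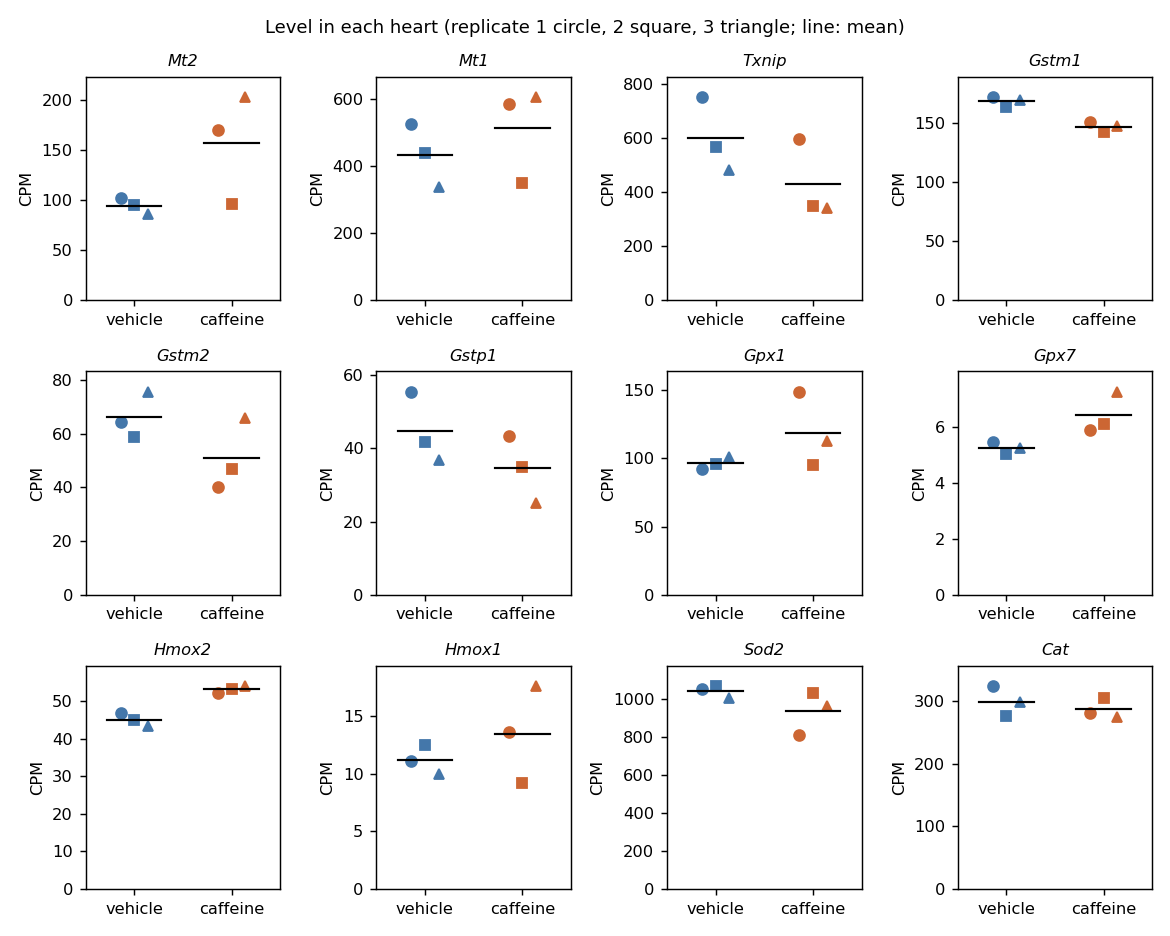
CPM in each heart (y axis, from 0) for 12 of the 42 genes, vehicle in blue and caffeine in orange, with replicate 1 as a circle, 2 as a square and 3 as a triangle, and a line at each group's mean. Mt2 is high in caffeine hearts 1 and 3 (170 and 203 CPM) and not in caffeine heart 2 (96.6 CPM), whereas the groups do not overlap for Gstm1, Gpx7 and Hmox2.

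The superoxide dismutases were level or slightly lower in caffeine, and all 3 intervals lay within a 1.5-fold change. Sod2, the mitochondrial manganese enzyme, stood at 1054, 1069 and 1004 CPM in vehicle and at 811, 1029 and 964 CPM in caffeine. Caffeine heart 1 was the lowest of all, and caffeine heart 2 lay inside the vehicle range. The log2 fold change of Sod2 was -0.16 ± 0.10 (edgeR adjusted p = 0.703). Sod1, the cytosolic copper-zinc enzyme, was at -0.11 and extracellular Sod3 at 0.00. The vehicle hearts agreed closely for Sod1, at 85.2 to 86.2 CPM, while the caffeine hearts spread from 71.9 to 89.2 CPM.

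Of the enzymes that remove peroxide, catalase and the glutathione peroxidases, 5 of 6 were higher in caffeine, with a median log2 fold change of 0.15, and none was called. Gpx1, the main cytosolic and mitochondrial glutathione peroxidase and a selenoprotein, stood at 92.2, 96.0 and 101 CPM in vehicle and at 149, 95.3 and 113 CPM in caffeine. Caffeine heart 1 was far above the others and caffeine heart 2 lay within the vehicle range. The log2 fold change of Gpx1 was 0.30 ± 0.14 (edgeR adjusted p = 0.579), and it was 0.11 without caffeine replicate 1 and 0.44 without caffeine replicate 2. The study itself listed Gpx1 among its genes higher in caffeine by edgeR at the same thresholds, which differs from the result here. Gpx7 (ENSMUSG00000028597, chr4:108400390-108406961), a peroxidase of the endoplasmic reticulum, stood at 5.47, 5.02 and 5.27 CPM in vehicle and at 5.88, 6.10 and 7.27 CPM in caffeine. All 3 caffeine hearts were above all 3 vehicle hearts, with a log2 fold change of 0.29 ± 0.19 (edgeR adjusted p = 0.708) and an exact two-sided permutation p of 0.1, the smallest that 3 against 3 can give. Groups that do not overlap always give this value, so for Gpx7, and for Gstm1 and Hmox2 below, it adds nothing to the separation. Gpx3, the secreted form, was higher by 0.24 ± 0.12 (edgeR adjusted p = 0.594), while Gpx4, which reduces lipid peroxides, and Gpx8 differed by 0.01 and 0.05. Catalase (Cat), the peroxisomal enzyme, stood at 324, 276 and 298 CPM in vehicle and at 281, 304 and 275 CPM in caffeine, and its log2 fold change was -0.06 ± 0.09 (edgeR adjusted p = 0.898).

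The peroxiredoxins and sulfiredoxin differed little, with 3 of 7 higher, 4 lower, a median of 0.00 and each 95% interval within a 1.5-fold change. Prdx1, a cytosolic peroxiredoxin, gave 153, 145 and 150 CPM in vehicle and 151, 112 and 146 CPM in caffeine. Caffeine heart 2 was the only low heart, and the log2 fold change of Prdx1 moved from -0.13 to -0.01 without it. Prdx3 gave 397, 325 and 345 CPM in vehicle and 358, 348 and 322 CPM in caffeine, which overlap throughout. Prdx5 gave 556, 490 and 545 CPM in vehicle and 551, 511 and 494 CPM in caffeine, again overlapping. Prdx4, the peroxiredoxin of the endoplasmic reticulum, gave 14.8, 14.3 and 15.6 CPM in vehicle and 18.6, 13.8 and 17.5 CPM in caffeine, for a log2 fold change of 0.15 ± 0.14. As with Mt2 and Gpx1, caffeine heart 2 was the low one of its group for Prdx4. Prdx2, Prdx6 and Srxn1, the sulfiredoxin that repairs overoxidised peroxiredoxins, were at 0.04, 0.00 and 0.05.

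In the thioredoxin system, Txnip (ENSMUSG00000038393, chr3:96557957-96561883), the thioredoxin inhibitor, was the member with the most negative difference. It stood at 751, 567 and 481 CPM in vehicle and at 597, 349 and 343 CPM in caffeine. Caffeine hearts 2 and 3 were below every vehicle heart, but caffeine heart 1 was above vehicle hearts 2 and 3. The log2 fold change of Txnip was -0.48 ± 0.21, a fold of 0.716, with a 95% interval of -0.95 to -0.01 and an edgeR adjusted p of 0.557. It was -0.79 without caffeine replicate 1 and -0.29 without vehicle replicate 1, and in each group the highest level was that of heart 1. The antisense gene Gm15441 overlaps 19.4% of the exon bases of Txnip and had 2 to 15 counts, against at least 2922 for Txnip. The reducing enzymes themselves were close to level: cytosolic Txn1 and mitochondrial Txn2 were at -0.07 and 0.01, the reductase Txnrd1 at -0.14, and the glutaredoxins Glrx and Glrx2 at -0.02 and -0.06. Txnrd2, the mitochondrial thioredoxin reductase, gave 35.8, 23.6 and 30.7 CPM in vehicle and 30.8, 32.1 and 31.7 CPM in caffeine. Its caffeine hearts lay within the vehicle range, and its log2 fold change of 0.07 ± 0.14 turned to -0.01 when libraries were scaled by their totals alone.

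Genes that make and recycle glutathione were split, with 2 of 4 higher, 2 lower and none called. Gclc, the catalytic subunit of glutamate-cysteine ligase, gave 13.9, 15.3 and 11.1 CPM in vehicle and 11.3, 12.2 and 12.2 CPM in caffeine. The caffeine hearts lay inside the vehicle range, with a log2 fold change of -0.18 ± 0.15 (edgeR adjusted p = 0.805). Gclm, the modifier subunit, was at -0.07. Gss, which joins glycine in the last step, gave 13.6, 12.6 and 12.7 CPM in vehicle and 12.3, 13.1 and 17.9 CPM in caffeine. Caffeine heart 3 alone was high, and the log2 fold change of Gss went from 0.16 to -0.02 without it. Gsr, glutathione reductase, was at 0.11.

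The glutathione transferases were lower in caffeine for 7 of 8 genes, with a median log2 fold change of -0.20, and none was called. Gstm1, a mu class transferase, (ENSMUSG00000058135, chr3:108012255-108017973) separated by treatment, at 172, 164 and 170 CPM in vehicle and 151, 143 and 148 CPM in caffeine. Every caffeine heart was below every vehicle heart, and the log2 fold change was -0.20 ± 0.08 (edgeR adjusted p = 0.504, exact two-sided permutation p = 0.1). The difference is small, a fold of 0.874, and it stayed between -0.22 and -0.18 whichever heart was left out. Gstm2 gave 64.4, 58.9 and 75.6 CPM in vehicle and 40.0, 46.8 and 65.8 CPM in caffeine, and caffeine heart 3 lay inside the vehicle range. Its log2 fold change was -0.38 ± 0.16 (edgeR adjusted p = 0.557), ranging from -0.60 to -0.24 as single hearts were left out. Gstp1, the pi class transferase, gave 55.5, 41.8 and 36.7 CPM in vehicle and 43.5, 34.9 and 25.0 CPM in caffeine, for a log2 fold change of -0.38 ± 0.20 (edgeR adjusted p = 0.631). Its groups overlap, since caffeine heart 1 was above vehicle hearts 2 and 3. Gstm5 was the single member of the family on the higher side, at 37.2, 30.8 and 37.8 CPM in vehicle and 47.2, 35.7 and 36.0 CPM in caffeine (0.16 ± 0.13), with caffeine heart 1 alone above the vehicle range. Mitochondrial Gstk1, Gsta4, which conjugates the lipid peroxidation product 4-hydroxynonenal, and the membrane-bound Mgst1 and Mgst3 were at -0.20, -0.17, -0.30 and -0.14.

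Many of these families have near copies in the genome, and the counting could divide or drop their reads. Of the 42 members, 21 share at least 75 bases at 95% identity or more with a transcript of another gene. Gstm1 shares a run of 657 bases with Gstm2-ps1, Gstp1 a run of 707 bases with Gstp2 and Sod1 a run of 465 bases with Gm8566. Txn1 shares a run of 309 bases with Txn-ps1, Prdx1 a run of 597 bases with Gm21399 and Gpx4 a run of 762 bases with Gpx4-ps2. The longest run was that of Sod2, at 3110 bases, and 24 other genes matched Sod2. Prdx5 had a run of 360 bases, and Glrx2 was matched by 100 other genes. The levels of these genes, and the ratios of levels that use them, are uncertain to that extent.

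**Figure D4:**
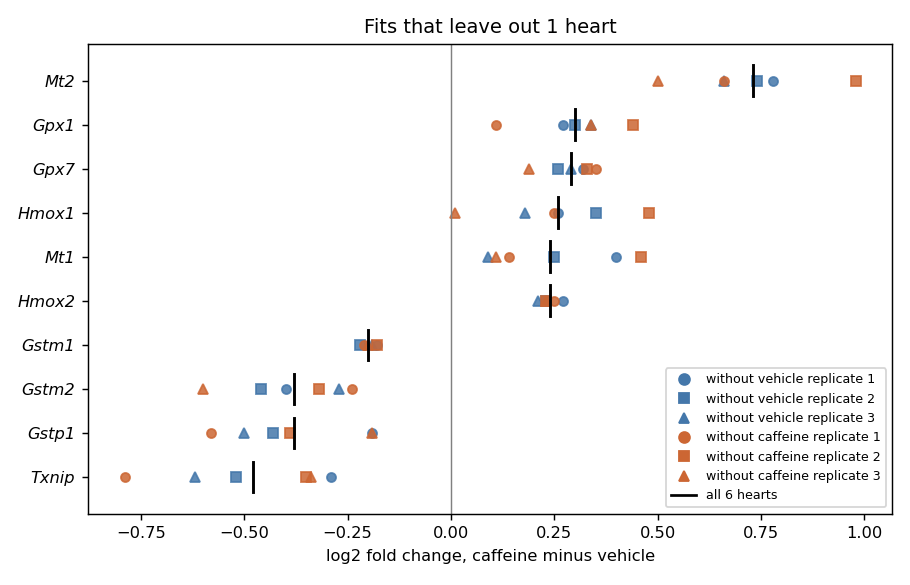
Log2 fold change of caffeine against vehicle (x axis) for 10 of the 42 genes, with all 6 hearts (black bar) and with each heart left out in turn (blue, a vehicle heart left out, orange, a caffeine heart left out, with symbols for the replicate). Mt2 moves from 0.50 to 0.98 and Txnip from -0.79 to -0.29, whereas Gstm1 stays between -0.22 and -0.18 and Hmox2 between 0.21 and 0.27.

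Among the regulators and inducible oxidoreductases, the transcription factor gene Nfe2l2 was level at 0.03, with 62.1 to 65.8 CPM in vehicle and 62.4 to 69.6 CPM in caffeine. Keap1, which marks NRF2 for breakdown, gave 68.3, 52.6 and 50.0 CPM in vehicle and 49.1, 51.2 and 50.0 CPM in caffeine. Only vehicle heart 1 was high, and the log2 fold change of Keap1 went from -0.19 to -0.03 without it. Nqo1, a quinone reductase and a classic NRF2 target, was at -0.08. Hmox2 (ENSMUSG00000004070, chr16:4726361-4766742), the constitutive haem oxygenase, gave 47.0, 44.9 and 43.4 CPM in vehicle and 52.1, 53.4 and 54.1 CPM in caffeine. All 3 caffeine hearts were above all 3 vehicle hearts, with a log2 fold change of 0.24 ± 0.09 (edgeR adjusted p = 0.431, exact two-sided permutation p = 0.1). Exons of Cdip1 on the other strand cover 40.2% of the exon bases of Hmox2, Cdip1 itself had a log2 fold change of -0.04, and reads there cannot be assigned by strand. Hmox1, the inducible form, gave 11.1, 12.5 and 9.93 CPM in vehicle and 13.6, 9.14 and 17.6 CPM in caffeine, so caffeine heart 2 was the lowest of the 6 and caffeine heart 3 the highest. Its log2 fold change of 0.26 ± 0.21 (edgeR adjusted p = 0.794) was 0.01 without caffeine replicate 3.

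The hearts did not contribute evenly. Vehicle heart 1 was the highest of the 6 for 17 members, and caffeine heart 2 was the lowest for 13 and the highest for 1. The median deviation of a member from its group's mean log2 CPM was 0.07 in vehicle heart 1 and -0.078 in caffeine heart 2.

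Other genes of the same pathways were taken as 8 lists with 121 genes, of which 104 were tested. None was called (0.107% of all genes), 52 were higher and 52 lower, and their median log2 fold change was -0.006. An unadjusted p below 0.05 was reached by 13 (5 higher, 8 lower), where 8.82% of all genes reached that level. The groups stood wholly apart for 14 of the 104 (caffeine above in 5, below in 9), where 14.2% of all genes did so. The smallest adjusted p belonged to Nadk2, the mitochondrial NAD kinase that makes NADP for NADPH, at 90.0, 85.5 and 79.8 CPM in vehicle and 69.6, 64.6 and 65.7 CPM in caffeine. The groups did not overlap, and the log2 fold change was -0.35 ± 0.09 (edgeR adjusted p = 0.214). In the NADPH supply list as a whole, 8 of 12 genes were lower, with a median of -0.06.

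In the wider NRF2 axis, 8 of 20 tested genes were higher and 12 lower, with a median of -0.08. Nfe2l1, the paralog of Nfe2l2, stood at 719, 786 and 754 CPM in vehicle and at 636, 615 and 617 CPM in caffeine, without overlap, for a log2 fold change of -0.27 ± 0.08 (edgeR adjusted p = 0.297). Osgin1, an oxidative stress induced growth inhibitor, gave 6.06, 6.53 and 6.38 CPM in vehicle and 3.92, 4.4 and 4.1 CPM in caffeine. It too did not overlap, at -0.61 ± 0.19 (edgeR adjusted p = 0.337).

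Among other glutathione genes 9 of 21 tested were higher and 12 lower, with a median of -0.14. The glyoxalase Glo1 was at 0.39 ± 0.17 (edgeR adjusted p = 0.534) and the alpha class transferase Gsta3 at -0.43 ± 0.18 (edgeR adjusted p = 0.528). The thiol and methionine repair genes were near level, with 9 of 17 higher, a median of 0.02 and a range of -0.19 to 0.18. Of the selenoprotein genes and those that build selenoproteins, 11 of 15 were higher, with a median of 0.05 and values of -0.31 to 0.22.

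In the iron and haem list 4 of 7 genes were higher, and the ferritin chains differed in sign. Fth1, the heavy chain, was at -0.24 ± 0.10 (edgeR adjusted p = 0.551), and Ftl1, the light chain, at 0.22 ± 0.09 (edgeR adjusted p = 0.485). Of 9 tested genes for enzymes that produce oxidants, 7 were higher, with a median of 0.09. The monoamine oxidases, which release hydrogen peroxide at the outer mitochondrial membrane, also differed in sign. Maoa gave 4.20, 3.60 and 5.37 CPM in vehicle and 6.58, 5.98 and 6.80 CPM in caffeine (0.56 ± 0.21, edgeR adjusted p = 0.447). Maob gave 69.5, 64.7 and 49.1 CPM in vehicle and 47.2, 43.7 and 45.7 CPM in caffeine (-0.43 ± 0.13, edgeR adjusted p = 0.314). Neither gene's groups overlapped, and neither was called.

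**Figure D5:**
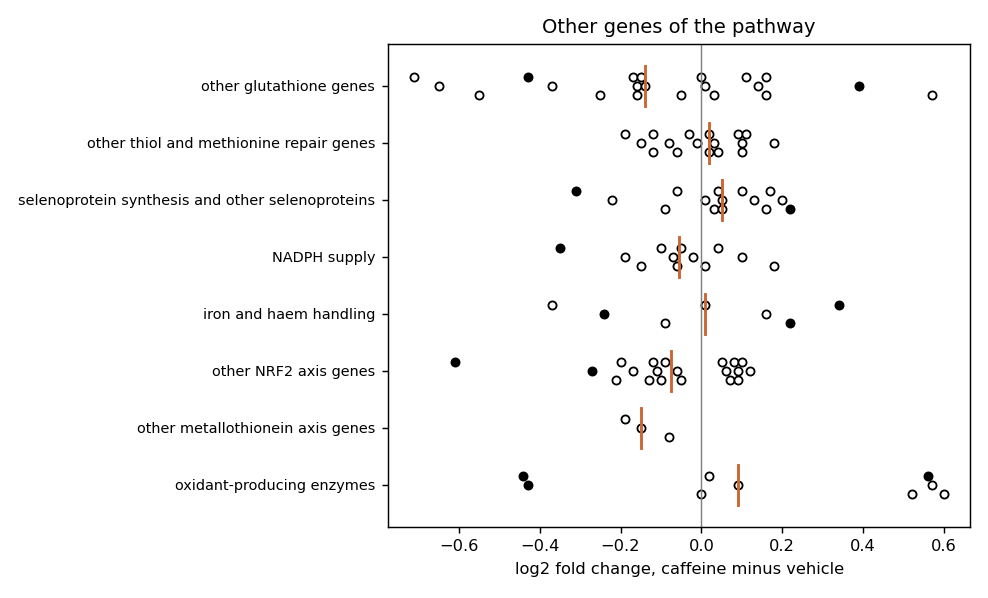
Log2 fold change of caffeine against vehicle (x axis) for the 104 tested genes of 8 further pathway lists (y axis), 1 point per gene, with an orange bar at each list's median. Filled points have an unadjusted p below 0.05. The medians lie between -0.15 and 0.09, and none of the genes was called.

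The libraries carried the markers of heart muscle: the summed CPM of 6 cardiomyocyte genes was 41899 to 50930 in every heart, and none of the 6 lymphocyte genes passed the filter. The cardiomyocyte genes leaned lower in caffeine, with 1 higher and 5 lower (median log2 fold change -0.09), and none was called. Of 4 atrial genes, Myl7 and Sln did not pass the filter, Myl4 was at -0.26 ± 0.37 (edgeR adjusted p = 0.898), and Nppa, a natriuretic peptide gene that ventricles can also express, was at 1.73 ± 0.35 (edgeR adjusted p = 0.125). Nearly all of the summed CPM of these 4 genes was that of Nppa, and the sum was 53.34 to 181.7 in vehicle and 267.1 to 435.1 in caffeine, without overlap. Endothelial markers (2 of 5 higher, median log2 fold change -0.003), smooth muscle and pericyte markers (2 of 5, median -0.104) and erythroid markers (3 of 5 tested, median 0.024) were mixed in direction, whereas fibroblast and macrophage markers were not. All 6 fibroblast markers were higher in caffeine (median log2 fold change 0.27), with a summed CPM of 761.5 to 918.5 in vehicle and 990.0 to 1169 in caffeine, and none was called. All 7 macrophage markers were higher too (median 0.43, none called), with a summed CPM of 121.0 to 179.3 in vehicle and 146.1 to 279.6 in caffeine. For both lists caffeine heart 2 was the lowest caffeine heart, as it was for 20 of the 42 members. These 20 hold members higher in caffeine, such as Mt2, Mt1, Gpx1, Prdx4 and Hmox1, and lower ones, such as Prdx1 and Sod1. For Gpx7 and Hmox2, whose groups did not overlap, caffeine heart 1 was the lowest caffeine heart. Of 10 glucocorticoid-responsive genes 4 were higher and 6 lower, Fkbp5 was at -0.53 ± 0.18 (edgeR adjusted p = 0.384), and none was called. The 5 small structural non-coding RNAs were all higher in the caffeine libraries, at 1.62 to 2.29, and 1 of them, Rpph1, was called (1.89 ± 0.26, edgeR adjusted p = 0.0242). The part of these differences in the values of the antioxidant genes was not tested, and in whole tissue fewer cells of a type cannot be told apart from less RNA per cell.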

How the data were processed

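Left ventricular poly(A) RNA of 6 mice was sequenced in 1 single-end run, from libraries made with a kit that does not mark strand. Reads were cleaned with FastQC, aligned by TopHat2 to mm10 (GRCm38) and assigned to genes of Ensembl release 79 by HTSeq. The authors deposited these raw counts for each mouse, without normalization, and whether counting used strand was not stated.

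All else was computed from the counts. Genes were filtered with filterByExpr (minimum count 10, minimum total 15) and normalized by TMM. They were fitted with treatment as the only term by edgeR 4.0.16 in R 4.3.3 (glmQLFit, glmQLFTest). The study used edgeR with the same thresholds of 0.05 and 1.5 but named no test or filter, and its list of changed genes held Gpx1, which was not called here. The SE is the absolute log2 fold change divided by the square root of F. P-values were adjusted by Benjamini-Hochberg over 13092 genes, and the fit was tested on simulated data. Alternatives used limma 3.58.1 and DESeq2 1.42.0, other scalings and filters, the replicate number as a block, and each heart left out. Exon lengths, positions and overlaps came from GENCODE M21, promoters from RefSeq (GRCm38.p6), and near copies from BLAST 2.17.0.

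Members, lists and naming rules were chosen with earlier results of these data known. Values per heart were given for members with an unadjusted p below 0.05, without overlap, with the largest difference of a role group in either direction, or among the 3 highest per kilobase. Figures were drawn with Matplotlib 3.10.9.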

Additional observations from a re-analysis of the deposited data

How the results depend on the processing

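No member was called lower, and no gene of the 8 pathway lists was called in either direction, under any of the 15 alternatives. Members called higher numbered 1 without the filter on low counts, which was Mt2 (0.70, edgeR adjusted p = 2.1e-08, where 240 of 22407 genes, 1.07%, were called), and 0 to 1 over the fits that left out 1 heart, the 1 being Mt2 without caffeine replicate 2 (0.98, where 22 of 13296 genes, 0.165%, were called, against 4 to 28 genes in the other such fits). Mt2 did not pass by edgeR's exact test (adjusted p = 0.0755), its likelihood ratio test (0.0715), limma-voom (0.392) or DESeq2 (0.581). Without the filter Txnip (-0.51, edgeR adjusted p = 0.000101) and Gstm2 (-0.40, edgeR adjusted p = 0.0353) passed the adjusted p but not the fold change. The counts of these genes were the same in both fits, but the SEs were smaller without the filter. They were 0.11 for Mt2, 0.10 for Txnip and 0.12 for Gstm2, against 0.21, 0.21 and 0.16 with it. Scaling by library totals alone shifted the median of all genes to -0.084 and that of the members to -0.113, and gave 10 members with an unadjusted p below 0.05 (11.4% of all genes), 10 without overlap (17.0% of all genes), and Txnrd2 at -0.01. Without the filter those counts were 9 (7.99% of all genes) and 5 (11.1%). Leaving out 1 heart gave 2 to 7 members with an unadjusted p below 0.05 (7.04% to 9.18% of all genes), fewest without vehicle replicate 1 or caffeine replicate 3 and most without caffeine replicate 1, and 6 to 14 without overlap, where 2 against 3 hearts separate more often (22.0% to 26.6% of all genes). The sign of Prdx3 (-0.12 to 0.03), Prdx5 (-0.09 to 0.00), Txnrd2 (-0.08 to 0.22) and Gss (-0.02 to 0.26) turned in such fits. Of 315 comparisons of the 21 named members with an alternative, 307 kept direction and side, and 17 of the 21 never turned. Many of these members were named for their difference in the same hearts, so a kept direction is not independent support for it.

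Over all genes tested the replicate numbers showed no pairing. Deviations of same-numbered hearts correlated at 0.045, -0.03 and -0.038, against -0.083 to 0.12 for different numbers. Whether same-numbered hearts shared a batch that touched only some genes was not tested. With the number as a block, 8 members had an unadjusted p below 0.05 (9.15% of all genes). None was called (0.306% of all genes, against 0.107% without the block), and Mt2 stood at 0.67 (edgeR adjusted p = 0.261). Txnip was at -0.51 ± 0.09 (edgeR adjusted p = 0.0851), Gstm2 at -0.40 ± 0.11 (edgeR adjusted p = 0.263) and Gstp1 at -0.38 ± 0.11 (edgeR adjusted p = 0.25). These 3 SEs were smaller than without the block, whereas that of Hmox2 rose from 0.09 to 0.10. With 3 hearts per treatment the 95% interval of 9 members reached past a 1.5-fold change, so a 1.5-fold difference lay inside the interval of those genes. Levels per kilobase with principal transcripts were 864 for Mt1 and 416 for Prdx5.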
